A study of Mus musculus with 32 samples.

Results

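Regulatory T cells (Tregs) were stimulated through the T cell receptor, alone or with an added agonist that engaged 1 of 4 TNF receptors. Transcripts of 10 receptors of the tumour necrosis factor (TNF) receptor superfamily that none of the agonists targets were followed in these cells. Among them Ltbr was close to undetected. The 10 genes were taken by name from the 54087 genes in the deposited tables, and all 10 passed the filter on low counts. They were Tnfrsf18 (GITR), Tnfrsf8 (CD30), Cd27, Tnfrsf14 (HVEM), Ltbr (lymphotoxin beta receptor), Fas, Tnfrsf1a (TNFR1), Tnfrsf21 (DR6), Tnfrsf10b (the mouse TRAIL receptor) and Tnfrsf26.

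Receptors of this superfamily are surface proteins with cysteine-rich extracellular repeats that bind trimeric ligands. GITR, CD30, CD27, HVEM and the lymphotoxin beta receptor recruit TRAF adaptor proteins and activate NF-kB. The first 4 of them act on lymphocytes, and the lymphotoxin beta receptor organises lymphoid tissue from stromal and myeloid cells. Fas, TNFR1, DR6 and the TRAIL receptor carry a cytoplasmic death domain that can recruit caspase-activating complexes. Tregs are known for high surface GITR, and Fas limits the survival of activated lymphocytes.

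The 32 libraries were made from total RNA of Foxp3/GFP+ Tregs of C57BL/6 mice with the Foxp3-IRES-GFP knock-in, aged 2.5 months. Every cultured group was stimulated with coated antibodies to CD3 and CD28 and received IL-2 at 10 ng/ml. Agonist groups received TNC-sc(mu)TNF80 (STAR2, a TNFR2 agonist) at 12 ng/ml, antibody 3H3 to 4-1BB at 10 µg/ml, TL1A (the ligand of DR3) at 12 ng/ml or OX40L at 100 ng/ml, so doses were not matched. Each agonist was given for 18 h or 36 h. Control cultures received no agonist for the same times, and resting Tregs were not stimulated. There were 3 libraries in each of the 11 groups except the OX40 agonist at 18 h, with 2. The labels do not say whether replicates were separate cultures or animals, so p-values measure only the spread between these libraries, which may be technical.

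Expected counts, the authors' estimated reads per gene, summed to between 11880270 and 38083925 in a library. All 6 Treg markers were detected in every group, with Foxp3 at a mean of 268 TPM in resting Tregs. Levels across groups are given as CPM, counts scaled to the size of the library after TMM normalization, and levels between genes as TPM, which also corrects for transcript length. Changes are log2 fold changes ± standard error from a single edgeR quasi-likelihood fit. A gene was called, and is said to have risen or fallen, at an adjusted p under 0.05 over all 14313 genes tested. Where the libraries of groups are said not to overlap, the share of all genes that separate in this way was not counted.

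The receptor genes are given by their positions in mm10 (GENCODE M21). Tnfrsf18 lies at chr4:156026164-156028895 on the plus strand, Tnfrsf14 at chr4:154921933-154928563 on the minus strand and Tnfrsf8 at chr4:145267137-145315164 on the minus strand. Cd27 lies at chr6:125232622-125237010 on the minus strand, Ltbr at chr6:125306571-125313885 on the minus strand and Tnfrsf1a at chr6:125349362-125362484 on the plus strand. Fas lies at chr19:34290666-34327772, Tnfrsf21 at chr17:43016555-43089189 and Tnfrsf10b at chr14:69767472-69784411, all on the plus strand, and Tnfrsf26 at chr7:143607659-143628722 on the minus strand. The library kit does not mark strand, so reads from bases shared by overlapping genes cannot be told apart by strand. Tnfrsf18 shares 414 of its 1524 exon bases with the antisense gene Gm16008, Tnfrsf26 shares 107 of 3218 with the antisense gene E230032D23Rik, and Cd27 shares 129 of 2328 with Mir8113. Of its 50-base transcript windows, Tnfrsf10b shares 6.21% with other genes, most with Gm15574, and Tnfrsf14 shares 4.51%, most with AB041806. How far this sharing moves the counts of these 5 genes was not tested. The M21 transcripts Fas-203, Fas-204, Fas-205 and Tnfrsf21-202 are absent from the deposited tables, so the annotation counted differs from M21. Fas, Tnfrsf8, Ltbr and Tnfrsf1a share no such window, and Tnfrsf21 shares 0.346%.

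RefSeq promoter windows of 300 bases (GRCm38.p6, 250 before the start of the gene and 50 after it) matched 8 of the 10 genes by symbol, all but Tnfrsf10b and Tnfrsf26. The 3 printed here belong to receptors that were called with all 4 agonists at 18 h, Fas and Tnfrsf8 upward and Cd27 downward. The windows are chr19:34290409-34290708 (plus strand) for Fas, chr4:145315115-145315414 (minus strand) for Tnfrsf8 and chr6:125236978-125237277 (minus strand) for Cd27. Each reads 5′ to 3′ on the strand of the gene, with matches to the kappa B and AP-1 motifs in capitals:
Fas: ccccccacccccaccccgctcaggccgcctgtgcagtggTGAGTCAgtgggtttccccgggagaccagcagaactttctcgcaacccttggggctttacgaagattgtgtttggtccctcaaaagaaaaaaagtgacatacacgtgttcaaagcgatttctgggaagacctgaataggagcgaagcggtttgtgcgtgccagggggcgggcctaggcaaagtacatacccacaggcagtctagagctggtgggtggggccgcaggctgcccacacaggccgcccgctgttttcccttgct
Tnfrsf8: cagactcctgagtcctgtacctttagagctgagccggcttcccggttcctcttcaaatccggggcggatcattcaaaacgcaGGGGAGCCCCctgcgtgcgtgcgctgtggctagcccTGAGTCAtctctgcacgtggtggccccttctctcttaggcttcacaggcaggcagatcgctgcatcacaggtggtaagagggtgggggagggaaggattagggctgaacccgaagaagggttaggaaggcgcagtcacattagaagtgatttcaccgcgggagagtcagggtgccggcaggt
Cd27: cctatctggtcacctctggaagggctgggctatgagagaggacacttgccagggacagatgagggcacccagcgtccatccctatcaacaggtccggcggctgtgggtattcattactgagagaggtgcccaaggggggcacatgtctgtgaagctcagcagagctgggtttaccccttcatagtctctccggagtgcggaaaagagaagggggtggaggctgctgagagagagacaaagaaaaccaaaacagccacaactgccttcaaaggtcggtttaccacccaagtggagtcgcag
Both strands were searched for the kappa B motif of NF-kB, for AP-1 (TGANTCA) and for the GC box (GGGCGG). The Fas window held an AP-1 match whose first base is 211 bases before the start. The Tnfrsf8 window held an AP-1 match 132 bases before the start and a kappa B match 168 bases before it. The Cd27 window held none of the 3 motifs. Among the 8 windows a kappa B match was in 1 and an AP-1 match in 2, against 4.51% and 7.81% of all 32851 promoter windows. A GC box was in 4 (Fas, Tnfrsf8, Ltbr and Tnfrsf21), against 35.7% of all windows. The matches do not overlap each other, and they describe letters, not binding.

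In resting Tregs the most abundant of the 10 receptors per transcript length were Cd27, at 493 ± 2.02 TPM, and Tnfrsf18, at 286 ± 9.02 TPM (SD, n = 3 each). Tnfrsf14 followed at 68.7 ± 10.4 TPM, then Fas at 49.5 ± 0.782 TPM, Tnfrsf1a at 27.2 ± 1.95 TPM, Tnfrsf26 at 21.6 ± 1.34 TPM and Tnfrsf8 at 11.1 ± 0.429 TPM. The lowest were Tnfrsf10b at 4.34 ± 0.825 TPM, Tnfrsf21 at 0.323 ± 0.0850 TPM and Ltbr at 0.117 ± 0.111 TPM. No neighbours in this order overlapped between libraries. The 10 summed to 962 ± 18.3 TPM, of which Cd27 made 51.2% and Tnfrsf18 29.7%.

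The order differed after culture without agonist. Tnfrsf18 came first at 18 h with 571 ± 13.9 TPM, ahead of Cd27 with 203 ± 15.9 TPM and Tnfrsf8 with 57.1 ± 1.90 TPM (SD, n = 3 each). At 36 h Tnfrsf18 had 463 ± 11.85 TPM and Cd27 had 70.1 ± 3.03 TPM, and the other receptors averaged 0.223 TPM (Ltbr) to 47.5 TPM (Tnfrsf8). The 10 summed to 949 ± 33.1 TPM at 18 h and 693 ± 14.7 TPM at 36 h, and Tnfrsf18 made 60.2% and 66.9% of the sum. Fas stood higher in the order with the TNFR2 and 4-1BB agonists, while with DR3 and OX40 it ranked 5 at both times, as in control cultures. It ranked 4 under the TNFR2 agonist at 18 h, and 4 under the 4-1BB agonist at 36 h and at 18 h, the last with 61.9 ± 3.02 TPM against 25.6 ± 0.977 TPM in control cultures (SD, n = 3 each). It ranked 3 under the TNFR2 agonist at 36 h, with 53.2 ± 2.29 TPM against 29.4 ± 1.15 TPM in control cultures. At 18 h Fas and Tnfrsf14 overlapped under the TNFR2, DR3 and OX40 agonists. At 36 h the neighbours that overlapped were Fas and Tnfrsf10b in control cultures, Tnfrsf8 and Tnfrsf14 under the TNFR2 agonist, Cd27 and Tnfrsf8 under the 4-1BB agonist, and Tnfrsf8, Tnfrsf14 and Fas under the DR3 and OX40 agonists.

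**Figure D1:**
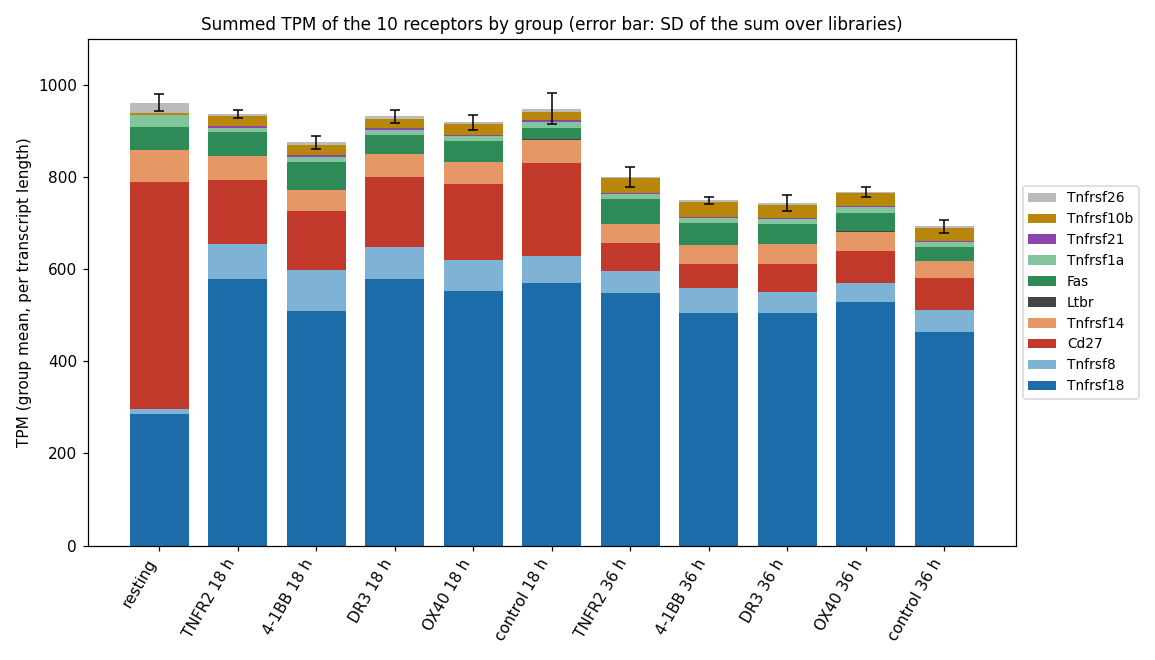
Stacked bars give the group mean TPM (vertical axis, per transcript length) of each of the 10 receptors in the 11 groups (horizontal axis), and error bars give the SD of the 10-gene sum over the 2 or 3 libraries. Cd27 makes 51.2% of the resting bar, and Tnfrsf18 makes 60.2% of the 18 h control bar.

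All 10 receptors were called at 18 h without agonist against resting. The Ltbr call rested on few counts and was lost in several alternative fits, given below. Tnfrsf18, Tnfrsf8, Ltbr, Tnfrsf21 and Tnfrsf10b rose, and Cd27, Tnfrsf14, Fas, Tnfrsf1a and Tnfrsf26 fell. These 10 calls of 10 came from a comparison that called 80.9% of all genes tested, 40.9% higher and 40.1% lower. At 36 h against resting 4 rose and 5 fell, all but Ltbr called (background 84.5%, 42.4% higher and 42.1% lower). The counts against resting are near the background and are no result about the receptors. Between the control times, 2 were higher at 36 h and 6 lower (background 52.2%, 25.6% higher and 26.6% lower). In bulk RNA, fewer cells of a type and less RNA per cell cannot be told apart.

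Among the TRAF-binding receptors, Tnfrsf8 rose most at both times. Tnfrsf8 encodes CD30, a marker of activated lymphocytes. It had 113, 109.8 and 109.96 CPM in 18 h control libraries and 93.3, 86.6 and 97.8 CPM in 36 h control libraries, against 19.4, 20.3 and 18.8 CPM in resting libraries. Every cultured library was above every resting one, with changes of 2.51 ± 0.05 at 18 h (edgeR adjusted p = 4.80e-40) and 2.24 ± 0.05 at 36 h (edgeR adjusted p = 3.55e-38). Tnfrsf18, the GITR gene, had 329.6, 329 and 337 CPM in 18 h control libraries and 279.7, 263 and 273 CPM in 36 h control libraries, against 158, 152 and 147 CPM in resting libraries. The groups did not overlap, and the changes were 1.12 ± 0.04 at 18 h (edgeR adjusted p = 4.74e-30) and 0.84 ± 0.04 at 36 h (edgeR adjusted p = 6.36e-25). Tnfrsf18 was lower at 36 h than at 18 h (-0.29 ± 0.04, edgeR adjusted p = 7.40e-09), and so was Tnfrsf8 (-0.26 ± 0.04, edgeR adjusted p = 1.40e-07).

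Cd27, whose protein costimulates T cells through its ligand CD70, was lower at each later time. It had 276, 273 and 277 CPM in resting libraries, 133, 125 and 128 CPM in 18 h control libraries and 46.1, 47.1 and 49.4 CPM in 36 h control libraries, with no overlap between these groups. The change against resting was -1.09 ± 0.04 at 18 h (edgeR adjusted p = 4.46e-29) and -2.53 ± 0.04 at 36 h (edgeR adjusted p = 5.01e-43). Between the control times Cd27 differed by -1.44 ± 0.04 (36 h over 18 h; edgeR adjusted p = 7.13e-31), which placed it 726 by size among the 14313 genes tested. Tnfrsf14 encodes HVEM, the receptor of LIGHT and a partner of BTLA. It had 21.9, 19.9 and 21.1 CPM in 18 h control libraries and 18.2, 17.03 and 16.2 CPM in 36 h control libraries, against 29.4, 26.0 and 28.8 CPM in resting libraries. Its change was smaller, -0.42 ± 0.07 at 18 h and -0.71 ± 0.07 at 36 h (edgeR adjusted p = 4.41e-07 and 4.83e-13). Ltbr was close to undetected, with 5, 6 and 9 expected counts in 18 h control libraries and 2, 0 and 3 in resting libraries. Its call at 18 h (edgeR adjusted p = 0.0411) was lost with DESeq2 (adjusted p = 0.0755), with no filter on low counts (edgeR adjusted p = 0.0595) and when resting library 1 or 2 or 18 h control library 2 or 3 was left out (edgeR adjusted p = 0.0529 to 0.246).

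The death domain receptors went different ways. Tnfrsf10b, the TRAIL receptor gene, had 33.0, 31.97 and 30.2 CPM in 18 h control libraries and 46.6, 50.9 and 49.6 CPM in 36 h control libraries, against 4.96, 5.94 and 8.21 CPM in resting libraries. It rose by 2.33 ± 0.09 at 18 h (edgeR adjusted p = 3.17e-28) and 2.96 ± 0.08 at 36 h (edgeR adjusted p = 4.09e-34), and was higher at 36 h than at 18 h by 0.63 ± 0.06 (edgeR adjusted p = 7.05e-13). Tnfrsf21, the DR6 gene, had 6.38, 8.25 and 6.88 CPM in 18 h control libraries and 4.08, 4.66 and 3.86 CPM in 36 h control libraries, against 0.483, 0.552 and 0.782 CPM in resting libraries. All cultured libraries stood above all resting ones. The change was 3.57 ± 0.24 at 18 h (edgeR adjusted p = 9.94e-19), the largest of the 10 receptors in that comparison, and 2.80 ± 0.26 at 36 h (edgeR adjusted p = 7.51e-14). Both changes rest on few counts in resting libraries, with 7, 9 and 10 expected counts of Tnfrsf21.

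Fas, the receptor of Fas ligand, had 18.5, 19.1 and 17.5 CPM in 18 h control libraries and 22.3, 20.8 and 22.1 CPM in 36 h control libraries, against 34.3, 32.1 and 31.8 CPM in resting libraries. Both cultured groups lay below resting, with changes of -0.83 ± 0.07 at 18 h (edgeR adjusted p = 5.11e-16) and -0.59 ± 0.06 at 36 h (edgeR adjusted p = 6.54e-12). Between the control times Fas was higher at 36 h (0.24 ± 0.07, edgeR adjusted p = 0.00169). Tnfrsf1a encodes TNFR1, which binds TNF and has the death domain that TNFR2 lacks. It had 14.8, 14.0 and 14.3 CPM in 18 h control libraries and 13.8, 14.1 and 15.03 CPM in 36 h control libraries, against 29.8, 26.7 and 28.6 CPM in resting libraries. Its change was -0.98 ± 0.08 at 18 h and -0.98 ± 0.07 at 36 h (edgeR adjusted p = 1.28e-16 and 3.87e-17), and the difference between the control times was not called (95% interval -0.15 to 0.15 on the log2 scale). Tnfrsf26, a mouse receptor gene, had 12.9, 10.8 and 10.9 CPM in 18 h control libraries and 6.77, 5.83 and 4.52 CPM in 36 h control libraries, against 32.4, 34.0 and 36.6 CPM in resting libraries. The groups did not overlap, and the changes were -1.58 ± 0.10 and -2.59 ± 0.11 (edgeR adjusted p = 1.73e-19 and 1.13e-26).

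Markers of other cells also differed between cultured and resting libraries. The 8 B cell markers summed to 331 to 373 TPM in 18 h control libraries and 312 to 326 TPM in 36 h control libraries, against 911 to 964 TPM in resting libraries, with all 8 detected in each. Nearly all of it was Ighm, at a mean of 348 TPM in 18 h control and 919 TPM in resting libraries, while Ms4a1 averaged 0.120 and 0.443 TPM there. The 7 stromal and endothelial markers summed to 22.6 to 25.1 TPM in 18 h control libraries, with Cdh5, Pdgfra and Kdr at 0, and to 23.1 to 24.9 TPM at 36 h, with Cdh5 at 0, against 106 to 114 TPM in resting libraries, almost all Pecam1, with Pdgfra at 0. The 12 myeloid markers summed to 17.8 to 23.0 TPM at 18 h, with Itgam, Cd14 and Tyrobp at 0, and to 27.1 to 30.9 TPM at 36 h, with Itgax and Tyrobp at 0, against 45.1 to 48.5 TPM in resting libraries, with none at 0. The 8 CD8 T and NK cell markers summed to 11.04 to 11.7 TPM at 18 h, with 5 at 0, and to 23.0 to 23.6 TPM at 36 h, with Ncr1, Klrb1c and Klra7 at 0, against 18.8 to 22.4 TPM in resting libraries, with Ncr1 and Klra7 at 0. The sum of these last markers was thus below resting at 18 h and above it at 36 h. The part of such cells in the receptor changes against resting was not tested.

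**Figure D2:**
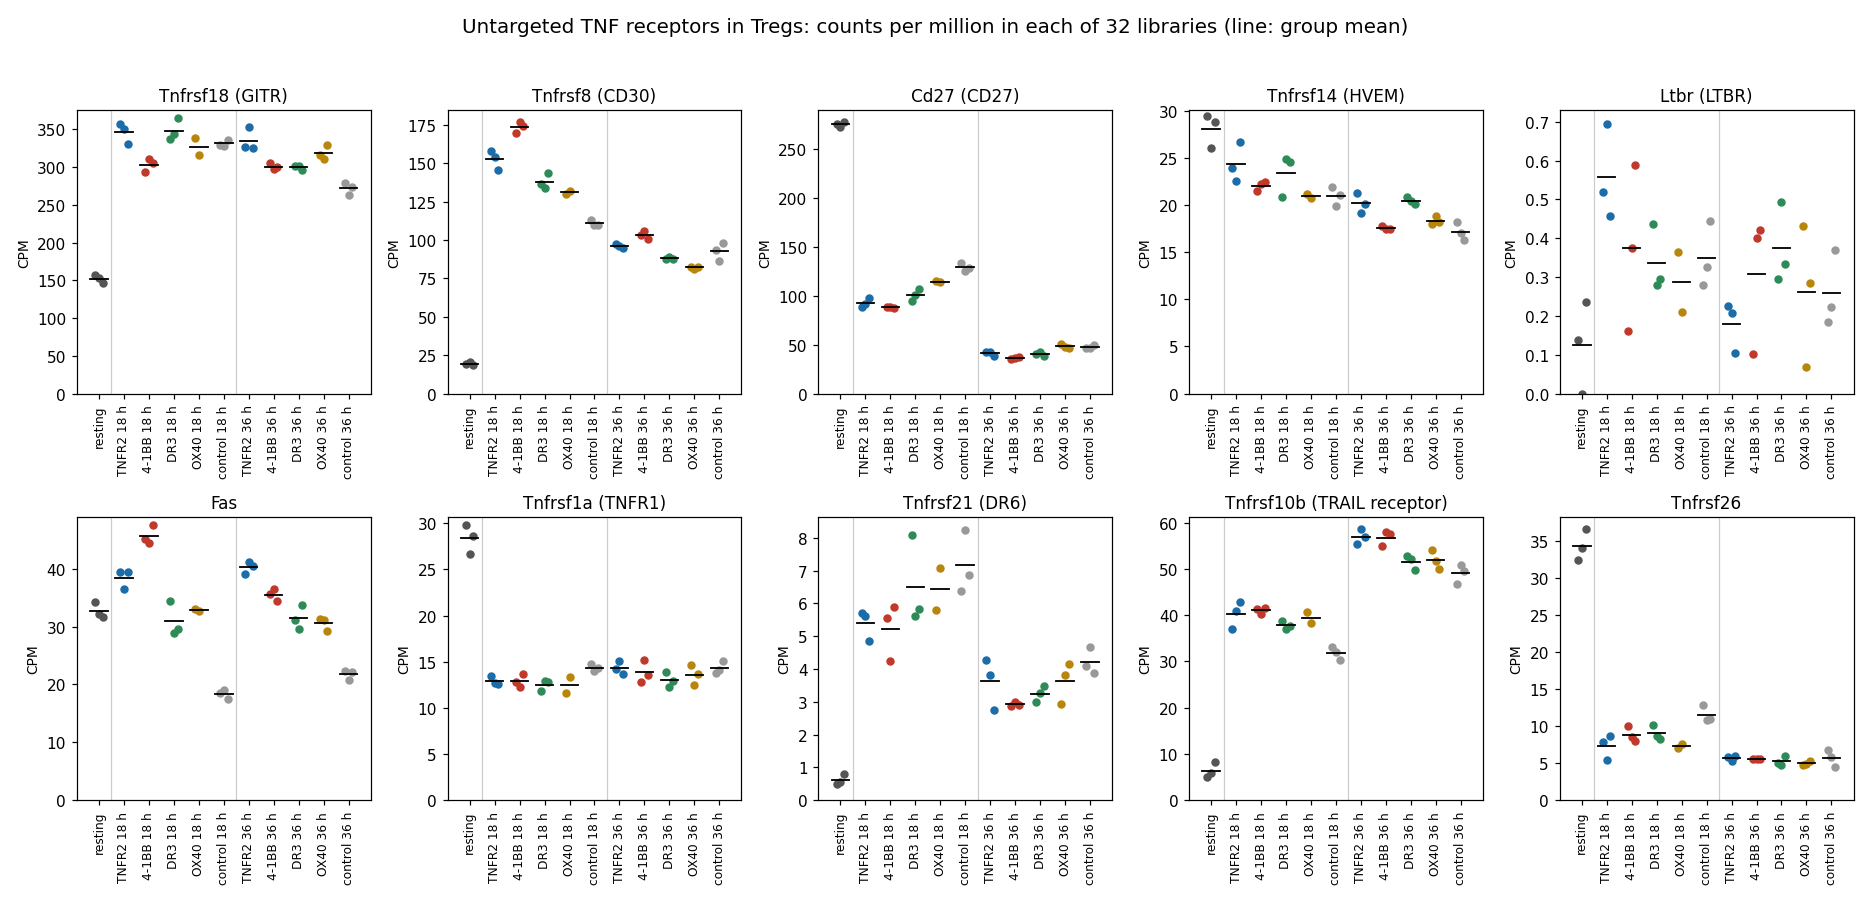
Each panel plots 1 receptor, with CPM (vertical axis) in each of the 32 libraries as points and the group mean as a line, for the resting, 18 h and 36 h groups (horizontal axis). Fas libraries of every agonist group sit above the control libraries of their time, and the Cd27 libraries are highest in resting Tregs and lowest at 36 h.

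Each agonist was set against the control of the same time, and the 4 comparisons at a time share the 3 control libraries. Results that recur across agonists are therefore not independent of each other. The receptors were chosen with earlier results of these data known, so counts beside a background are no test of them as a set. At 18 h the TNFR2 agonist changed 7 of the 10 receptors, 4 up and 3 down (background 31.1%, 15.8% higher and 15.3% lower). The 4-1BB agonist changed 7, 3 up and 4 down (background 25.8%, 12.7% higher and 13.1% lower), the DR3 agonist 5, 3 up and 2 down (background 19.6%, 9.66% higher and 9.94% lower), and the OX40 agonist 5, 3 up and 2 down (background 19%, 9.32% higher and 9.71% lower). At 36 h the TNFR2 agonist changed 5, 4 up and 1 down (background 24.8%, 13% higher and 11.9% lower), and the 4-1BB agonist 6, 4 up and 2 down (background 22.5%, 10.9% higher and 11.5% lower). The DR3 agonist changed 4 at 36 h, 3 up and 1 down (background 13.4%, 6.97% higher and 6.39% lower), and the OX40 agonist 3, 2 up and 1 down (background 13.3%, 7.12% higher and 6.21% lower). Backgrounds are shares of all genes tested. The gene lists below are set against the share called in either direction, and the shares by direction given here apply to them too. The median log2 fold change over the 10 receptors was 0.14, -0.03, 0.00 and -0.09 at 18 h and 0.03, 0.09, 0.00 and 0.06 at 36 h for TNFR2, 4-1BB, DR3 and OX40, against -0.01, 0.00, -0.01 and -0.01 and 0.00, 0.00, 0.00 and 0.00 over all genes.

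Fas rose with all 4 agonists at both times, as did 2.2% of all genes tested. At 18 h Fas had 39.4, 36.5 and 39.5 CPM under the TNFR2 agonist, 45.1, 44.5 and 47.5 CPM under the 4-1BB agonist, 34.4, 28.9 and 29.5 CPM under the DR3 agonist and 33.1 and 32.7 CPM under the OX40 agonist, against 18.5, 19.1 and 17.5 CPM in control cultures. All agonist libraries were above all control libraries, by 1.07 ± 0.06, 1.32 ± 0.06, 0.75 ± 0.07 and 0.84 ± 0.07 (edgeR adjusted p = 3.10e-19, 2.79e-23, 6.90e-13 and 1.27e-13). The 4-1BB change was a 2.49-fold rise and placed Fas 483 by size among the 14313 genes tested. At 36 h Fas had 39.1, 41.2 and 40.4 CPM under the TNFR2 agonist, 35.6, 36.5 and 34.4 CPM under the 4-1BB agonist, 31.1, 29.6 and 33.8 CPM under the DR3 agonist and 31.4, 31.2 and 29.2 CPM under the OX40 agonist, against 22.3, 20.8 and 22.1 CPM in control cultures. Again no agonist library reached down to the controls, and the rises were 0.89 ± 0.06, 0.71 ± 0.06, 0.53 ± 0.06 and 0.50 ± 0.06 (edgeR adjusted p = 4.33e-17, 9.05e-14, 1.65e-09 and 9.65e-09).

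Tnfrsf10b was the other death domain receptor to rise, with all 4 agonists at 18 h, as did 4.63% of all genes tested. It had 37.0, 40.9 and 42.9 CPM under the TNFR2 agonist, 41.2, 40.3 and 41.5 CPM under the 4-1BB agonist, 38.7, 37.0 and 37.6 CPM under the DR3 agonist and 40.6 and 38.2 CPM under the OX40 agonist, against 33.0, 31.97 and 30.2 CPM in control cultures at 18 h. The groups did not overlap, but the changes were small, 0.34 ± 0.06, 0.37 ± 0.06, 0.25 ± 0.06 and 0.32 ± 0.07 (edgeR adjusted p = 1.80e-05, 3.02e-06, 0.00271 and 3.97e-04). At 36 h Tnfrsf10b rose with the TNFR2 agonist (0.22 ± 0.05, edgeR adjusted p = 0.00223) and the 4-1BB agonist (0.21 ± 0.05, edgeR adjusted p = 0.00267). It was not called there with the DR3 or OX40 agonist (0.07 ± 0.05 and 0.09 ± 0.05).

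Tnfrsf21 fell with the TNFR2 and 4-1BB agonists at 18 h (-0.41 ± 0.14 and -0.46 ± 0.14; edgeR adjusted p = 0.0269 and 0.0121) and with the 4-1BB agonist at 36 h (-0.52 ± 0.17, edgeR adjusted p = 0.0180). It had 5.55, 4.23 and 5.90 CPM under the 4-1BB agonist at 18 h, against 6.38, 8.25 and 6.88 CPM in control cultures, with no overlap. The TNFR2 call at 18 h was lost with DESeq2. Both 18 h calls were lost without control library 2, the first also without TNFR2 agonist library 3 and the second also without 4-1BB agonist library 2. The 36 h call was lost without control library 2 or 4-1BB agonist library 1 or 3. Tnfrsf1a was called in 0 of 8 comparisons by edgeR and in 0 by DESeq2, with 2 at an unadjusted p under 0.05. At 18 h it had 13.4, 12.6 and 12.6 CPM under the TNFR2 agonist, 12.7, 12.3 and 13.6 CPM under the 4-1BB agonist, 11.8, 12.9 and 12.7 CPM under the DR3 agonist and 11.6 and 13.3 CPM under the OX40 agonist, against 14.8, 14.0 and 14.3 CPM in control cultures. All agonist libraries lay below all control libraries at that time, but the 4 comparisons share these controls. How many of all genes separate in this way was not counted. Tnfrsf1a was not called there, in comparisons that called 31.1%, 25.8%, 19.6% and 19% of all genes tested. Its log2 fold changes were -0.15, -0.16, -0.20 and -0.21 at 18 h and 0.00, -0.05, -0.13 and -0.06 at 36 h, and the widest 95% interval reached from -0.39 to -0.03 with the OX40 agonist at 18 h.

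Tnfrsf8 rose with all 4 agonists at 18 h. It had 158, 154 and 146 CPM under the TNFR2 agonist, 169.9, 177 and 174 CPM under the 4-1BB agonist, 136, 134 and 143 CPM under the DR3 agonist and 130.2 and 132 CPM under the OX40 agonist, against 113, 109.8 and 109.96 CPM in control cultures. No agonist library overlapped the controls, and the changes were 0.46 ± 0.04, 0.65 ± 0.04, 0.31 ± 0.04 and 0.24 ± 0.04 (edgeR adjusted p = 3.98e-14, 1.44e-19, 1.10e-08 and 2.22e-05). At 36 h it had 97.6, 96.3 and 95.1 CPM under the TNFR2 agonist, 103, 106 and 100.4 CPM under the 4-1BB agonist, 88.0, 88.7 and 87.9 CPM under the DR3 agonist and 82.5, 81.4 and 82.6 CPM under the OX40 agonist, against 93.3, 86.6 and 97.8 CPM in control cultures. Here Tnfrsf8 rose with the 4-1BB agonist (0.16 ± 0.04, edgeR adjusted p = 0.00185), fell with the OX40 agonist (-0.17 ± 0.04, edgeR adjusted p = 0.00131) and was not called with TNFR2 (0.06 ± 0.04) or DR3 (-0.07 ± 0.04). The 36 h rise with 4-1BB was lost when control library 2, the lowest of the 3, was left out.

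Tnfrsf18 had 357, 351 and 331 CPM under the TNFR2 agonist, 294, 311 and 306 CPM under the 4-1BB agonist, 338, 343 and 365 CPM under the DR3 agonist and 339 and 316 CPM under the OX40 agonist, against 329.6, 329 and 337 CPM in control cultures at 18 h. A small fall with the 4-1BB agonist was called there (-0.13 ± 0.04, edgeR adjusted p = 0.00742) and was lost without 4-1BB agonist library 1. The other agonists were not called at 18 h (0.06 for TNFR2, 0.07 for DR3 and -0.02 for OX40). At 36 h Tnfrsf18 rose with all 4 agonists, as did 3.88% of all genes tested. It had 327, 353 and 325 CPM under the TNFR2 agonist, 305, 298 and 300.2 CPM under the 4-1BB agonist, 302, 302 and 296 CPM under the DR3 agonist and 316, 310.3 and 329.8 CPM under the OX40 agonist, against 279.7, 263 and 273 CPM in control cultures. All agonist libraries were above all controls, by 0.30 ± 0.04, 0.15 ± 0.04, 0.14 ± 0.04 and 0.23 ± 0.04 (edgeR adjusted p = 9.71e-09, 0.00251, 0.00637 and 7.00e-06), and the DR3 call was lost without control library 2.

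Cd27 fell in 7 of the 8 agonist comparisons, and 3.5% of all genes tested fell in at least 7. At 18 h it had 88.4, 92.0 and 98.1 CPM under the TNFR2 agonist, 88.1, 88.8 and 87.6 CPM under the 4-1BB agonist, 94.9, 101 and 107 CPM under the DR3 agonist and 115 and 114 CPM under the OX40 agonist, against 133, 125 and 128 CPM in control cultures. Every agonist library was below every control, with changes of -0.47 ± 0.04, -0.55 ± 0.04, -0.35 ± 0.04 and -0.17 ± 0.05 (edgeR adjusted p = 5.15e-13, 3.86e-15, 5.71e-09 and 0.00523), and the OX40 call was lost without OX40 agonist library 2. At 36 h Cd27 had 42.2, 42.6 and 38.7 CPM under the TNFR2 agonist, 35.0, 36.0 and 37.4 CPM under the 4-1BB agonist, 40.8, 42.2 and 38.7 CPM under the DR3 agonist and 50.4, 47.4 and 46.8 CPM under the OX40 agonist, against 46.1, 47.1 and 49.4 CPM in control cultures. It fell with the TNFR2, 4-1BB and DR3 agonists (-0.21 ± 0.05, -0.39 ± 0.05 and -0.23 ± 0.05; edgeR adjusted p = 0.00123, 1.43e-08 and 6.20e-04). The OX40 agonist libraries overlapped the controls (0.03 ± 0.05, edgeR adjusted p = 0.785).

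Tnfrsf26 fell with all 4 agonists at 18 h, as did 5.37% of all genes tested. It had 7.87, 5.43 and 8.58 CPM under the TNFR2 agonist, 10.0, 8.45 and 7.99 CPM under the 4-1BB agonist, 10.1, 8.68 and 8.25 CPM under the DR3 agonist and 7.07 and 7.62 CPM under the OX40 agonist, against 12.9, 10.8 and 10.9 CPM in control cultures. All agonist libraries were below all controls, and the changes were -0.64 ± 0.12, -0.38 ± 0.11, -0.35 ± 0.12 and -0.65 ± 0.13 (edgeR adjusted p = 2.99e-05, 0.00922, 0.0318 and 2.14e-04). The DR3 call was lost with DESeq2. The 4-1BB and DR3 calls were lost without control library 1 and without library 2 or 3 of their own agonist. At 36 h Tnfrsf26 was called with 0 of 4 agonists by edgeR and by DESeq2, with 0 at an unadjusted p under 0.05 (0.00, -0.03, -0.13 and -0.20).

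Tnfrsf14 rose with the TNFR2 agonist at 18 h (0.22 ± 0.07) and 36 h (0.23 ± 0.07) and with the DR3 agonist at 36 h (0.26 ± 0.07; edgeR adjusted p = 0.0106, 0.0106 and 0.00685). Under the TNFR2 agonist it had 23.9, 22.6 and 26.7 CPM at 18 h, against 21.9, 19.9 and 21.1 CPM in control cultures, with no overlap. Per transcript length the 18 h libraries did overlap, at 43.7 to 60.1 TPM under the TNFR2 agonist and 45.6 to 54.9 TPM in control cultures, and the log2 ratio of mean TPM was 0.04. At 36 h the TNFR2 agonist libraries also overlapped control, at 37.7 to 49.3 TPM against 34.2 to 39.1 TPM (log2 ratio 0.19). The DR3 agonist libraries at 36 h did not, at 41.95 to 48.7 TPM (log2 ratio 0.27). The 18 h call was lost without control library 2 or TNFR2 agonist library 3, the 36 h TNFR2 call without control library 3 or TNFR2 agonist library 1, and the DR3 call without control library 3. Ltbr was called in 0 of 8 comparisons by edgeR and by DESeq2, with 0 at an unadjusted p under 0.05, and had 16 expected counts at most in a library.

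**Figure D3:**
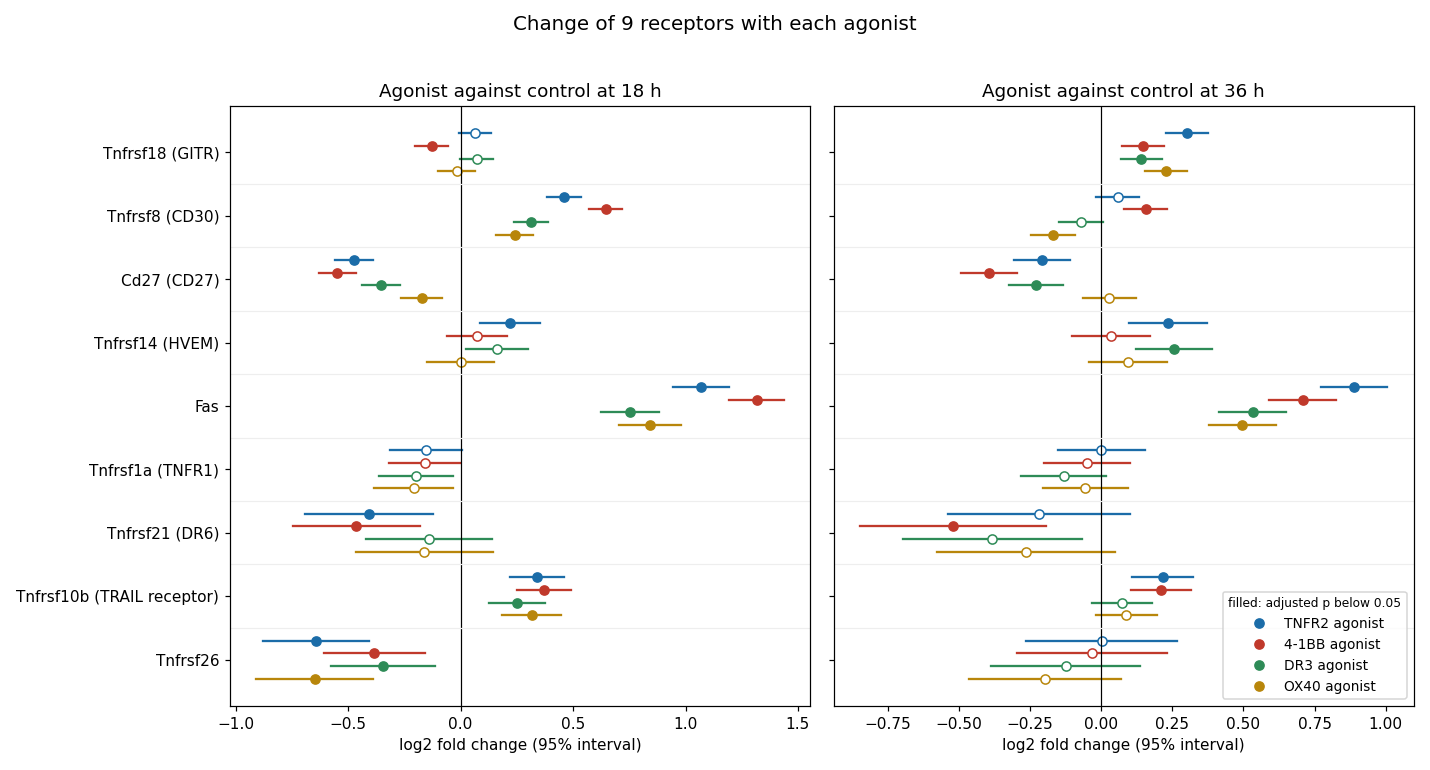
Points give the log2 fold change (horizontal axis) of 9 receptors (vertical axis; Ltbr left out for its low counts) for each agonist against the control of 18 h (left) or 36 h (right), with 95% intervals as lines and filled points at an adjusted p under 0.05. Fas lies to the right of 0 in all 8 comparisons, between 0.50 and 1.32, and Cd27 is called to the left of 0 in 7.

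A transcript from the ribosomal RNA repeat differed between the same groups. At 18 h it took 1407 to 11857 CPM in TNFR2, 1548 to 4426 CPM in 4-1BB, 3928 to 6853 CPM in DR3 and 1407 to 2319 CPM in OX40 agonist libraries, against 8114 to 26034 CPM in control libraries. At 36 h the highest libraries were those of agonists. The repeat took 2752 to 15002 CPM in TNFR2, 1955 to 2765 CPM in 4-1BB, 1206 to 14465 CPM in DR3 and 1585 to 12813 CPM in OX40 agonist libraries, against 741 to 3246 CPM in control libraries. Leaving out the 6 libraries above 10000 CPM leaves 1 control library at 18 h, which is assumed to vary like the other groups. Fas still rose with the 4 agonists at 18 h, by 1.12, 1.38, 0.82 and 0.91 (edgeR adjusted p = 2.19e-11, 3.84e-15, 4.31e-08 and 8.20e-09). The 4 calls for Tnfrsf8 and for Tnfrsf10b at 18 h also held. The 18 h calls lost were Cd27 with OX40 (-0.17, edgeR adjusted p = 0.114), Tnfrsf18 with 4-1BB, Tnfrsf14 with TNFR2, Tnfrsf21 with TNFR2 and 4-1BB, and Tnfrsf26 with 4-1BB and DR3. At 36 h the Tnfrsf14 call with TNFR2 was lost (0.19, edgeR adjusted p = 0.1001), and so was the Ltbr call of 18 h control against resting (edgeR adjusted p = 0.0519).

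Markers of other cells were also set against the controls of each time. The B cell markers summed to 419 to 436 TPM with TNFR2, 463 to 481 TPM with 4-1BB, 368 to 373 TPM with DR3 (Cr2 at 0) and 394 to 397 TPM with OX40 agonist at 18 h, against 331 to 373 TPM in control cultures. Ighm again made nearly all of it, at 463 TPM with the 4-1BB agonist, where Ms4a1 averaged 0.157 TPM. The stromal and endothelial markers summed to 13.6 to 17.2 TPM with TNFR2, 12.3 to 15.5 TPM with 4-1BB, 14.8 to 16.6 TPM with DR3 and 15.1 to 16.2 TPM with OX40 agonist at 18 h, against 22.6 to 25.1 TPM in control cultures. Of these 7 markers, 2 (TNFR2) to 4 (4-1BB) were at 0 in a group, with Pdgfra at 0 in all 5 groups. The CD8 T and NK cell markers summed to 14.5 to 15.6, 13.9 to 15.7, 13.6 to 15.7 and 14.6 to 17.2 TPM in the same agonist order, against 11.04 to 11.7 TPM in control cultures. Ncr1, Klrd1, Klre1 and Klra7 were at 0 in all 5 groups, and Klrb1c in all but DR3. The sums thus came from Cd8a, Cd8b1 and Eomes, with Klrb1c added in the DR3 group. The myeloid markers summed to 20.6 to 26.9, 15 to 16.5, 18.3 to 26.4 and 19.9 to 20.98 TPM, against 17.8 to 23.0 TPM in control cultures. Tyrobp was at 0 in all but the TNFR2 agonist group, and 5 of the 12 markers were at 0 with 4-1BB. At 18 h the summed CD8 T and NK cell markers of every agonist group were thus above control, from few detected genes. The stromal and endothelial sums were below control with every agonist, and the myeloid sum with 4-1BB. B cell sums were above control with TNFR2, 4-1BB and OX40 and overlapped it with DR3. A sum does not show that each marker changed. At 36 h the stromal and endothelial markers summed to 17.8 to 20.5, 16.6 to 18.0, 20.0 to 21.4 and 17.1 to 17.9 TPM with TNFR2, 4-1BB, DR3 and OX40, against 23.1 to 24.9 TPM in control cultures. The B cell markers there spanned 309.8 to 336, 326 to 342, 298 to 314 and 295 to 319 TPM, against 312 to 326 TPM. The myeloid markers had 32.5 to 35.9, 23.6 to 25.8, 30.3 to 32.3 and 24.5 to 27.2 TPM, against 27.1 to 30.9 TPM, and the CD8 T and NK cell markers 22.8 to 24.9, 19.5 to 21.6, 18.5 to 19.5 and 21.8 to 24.6 TPM, against 23.0 to 23.6 TPM. The part of these cells in the agonist changes was not tested.

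The 4 agonists differed from each other for Fas, Tnfrsf8, Cd27 and Tnfrsf18 at both times by a joint test. At 18 h the edgeR adjusted p was 4.31e-10 for Fas, 6.91e-11 for Tnfrsf8, 1.63e-07 for Cd27 and 1.78e-04 for Tnfrsf18, 4 of 10 receptors against 14.3% of all genes tested. At 36 h the edgeR adjusted p was 1.29e-06 for Fas, 5.69e-08 for Tnfrsf8, 1.66e-07 for Cd27 and 0.00355 for Tnfrsf18, against 9.06% of all genes. The Fas change was larger with TNFR2 and 4-1BB than with DR3 and OX40 at each time, with 4-1BB at the top at 18 h and TNFR2 at 36 h; pairs of agonists were not tested. Because the doses were not matched, these are differences between the cultures as made.

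Whether an agonist's effect changed between the times was tested as the 36 h effect minus the 18 h effect. For Tnfrsf8 it changed with all 4 agonists, by -0.40 ± 0.05 for TNFR2, -0.49 ± 0.05 for 4-1BB, -0.38 ± 0.05 for DR3 and -0.41 ± 0.06 for OX40 (edgeR adjusted p = 5.85e-07, 3.73e-09, 6.26e-06 and 4.66e-06). The Tnfrsf8 effect was thus lower at 36 h with each agonist, and remained a called rise with 4-1BB alone. Tnfrsf18 changed the other way with the TNFR2, 4-1BB and OX40 agonists, by 0.24 ± 0.05, 0.27 ± 0.05 and 0.25 ± 0.06 (edgeR adjusted p = 0.00217, 3.80e-04 and 0.00549), and the DR3 value of 0.07 ± 0.05 was not called. The OX40 call for Tnfrsf18 was lost without OX40 agonist library 2 at 18 h.

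The Fas effect was smaller at 36 h with the 4-1BB agonist (-0.61 ± 0.09, edgeR adjusted p = 1.64e-06) and the OX40 agonist (-0.35 ± 0.09, edgeR adjusted p = 0.0241). It was not called for TNFR2 (-0.18 ± 0.09) or DR3 (-0.22 ± 0.09). The OX40 call for Fas was lost without control library 3 or OX40 agonist library 2 at 18 h, and without control library 1 or OX40 agonist library 3 at 36 h. With the TNFR2 agonist the fall of Cd27 was smaller at 36 h (0.27 ± 0.07, edgeR adjusted p = 0.00625). Tnfrsf26, which fell with that agonist at 18 h, was not called at 36 h. Its effects differed between the times by 0.64 ± 0.18 (edgeR adjusted p = 0.0204). In all, 4, 3, 1 and 3 receptors were called for TNFR2, 4-1BB, DR3 and OX40, against 6.69%, 4.37%, 2.31% and 3.48% of all genes tested. Without the 6 libraries rich in the ribosomal RNA transcript, the calls for Cd27 and Tnfrsf26 with TNFR2 and for Fas and Tnfrsf18 with OX40 were lost, and the 4 Tnfrsf8 calls held.

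**Figure D4:**
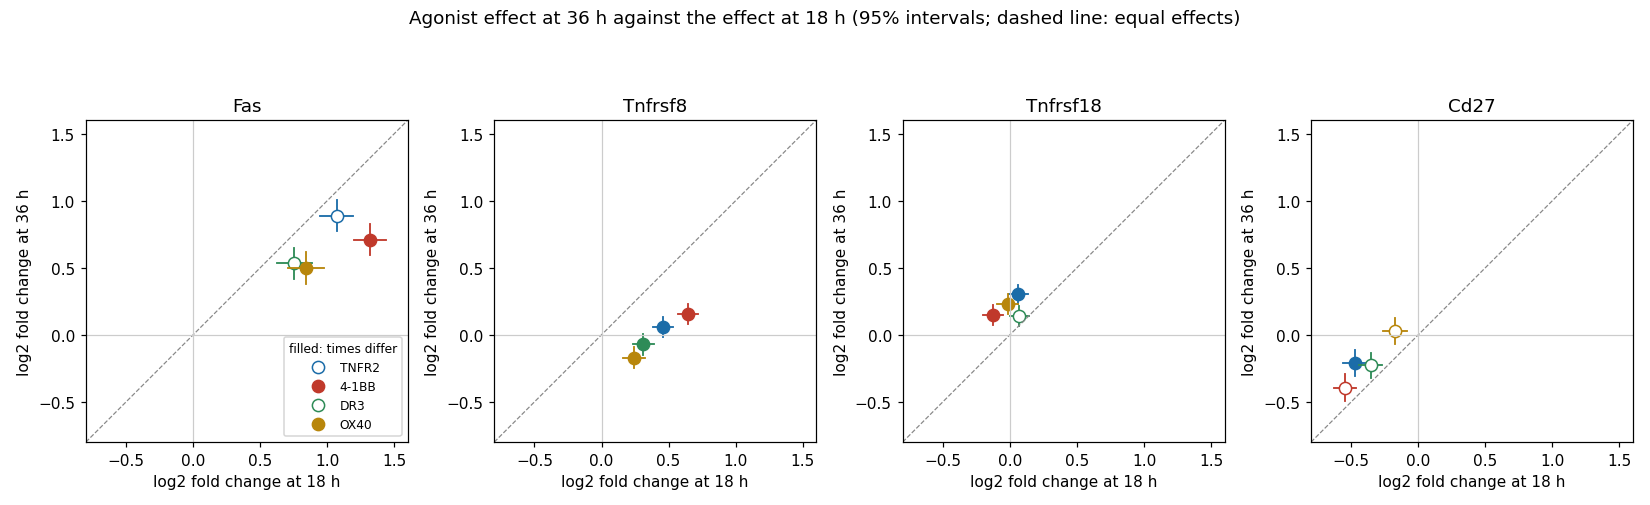
For Fas, Tnfrsf8, Tnfrsf18 and Cd27, each point sets an agonist's log2 fold change against control at 36 h (vertical axis) against that at 18 h (horizontal axis), with 95% intervals and filled points where the times differed at an adjusted p under 0.05. All 4 Tnfrsf8 points lie below the dashed line of equal effects, and the 3 filled Tnfrsf18 points lie above it, by 0.24 to 0.27.

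Ligands of the 10 receptors were followed in the same fit, and 10 of 11 were tested, all but Tnfsf18, the GITR ligand. Of the 10 there were 4 higher and 4 lower with TNFR2, 4 higher and 5 lower with 4-1BB, 5 higher and 4 lower with DR3 and 4 higher and 2 lower with OX40 at 18 h, with medians of -0.05, -0.16, 0.08 and 0.00, against 31.1%, 25.8%, 19.6% and 19% of all genes called in these comparisons. At 36 h there were 3 higher and 3 lower with TNFR2, 4 higher and 4 lower with 4-1BB, 3 higher and 3 lower with DR3 and 4 higher and 4 lower with OX40, against 24.8%, 22.5%, 13.4% and 13.3% of all genes. Tnfsf8, the CD30 ligand gene, had 318 ± 29.2 CPM under the TNFR2 agonist, 367 ± 8.71 CPM under 4-1BB and 284 ± 6.99 CPM under DR3 at 18 h, against 213 ± 8.55 CPM in control cultures (SD, n = 3 each). It rose in all 8 comparisons, by 0.58, 0.79, 0.42 and 0.33 at 18 h and 0.78, 0.78, 0.58 and 0.51 at 36 h. So the genes of CD30 and its ligand both rose with each agonist at 18 h, while at 36 h the ligand gene rose with all 4 and Tnfrsf8 was called higher with 4-1BB alone. Cd70, the CD27 ligand gene, was rare but rose in all 8 comparisons. Its largest change was with the 4-1BB agonist at 18 h (2.28 ± 0.28, edgeR adjusted p = 3.38e-09), at 2.77 ± 0.363 CPM against 0.562 ± 0.114 CPM in control cultures (SD, n = 3 each).

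Tnf, whose product binds TNFR1, fell in all 8 comparisons (-0.41, -0.46, -0.31 and -0.35 at 18 h and -0.40, -0.49, -0.31 and -0.40 at 36 h). Tnfsf14, which encodes LIGHT, a ligand of HVEM and the lymphotoxin beta receptor, also fell in all 8 (-0.47, -0.32, -0.28 and -0.35 and -0.41, -0.37, -0.31 and -0.37). Fasl, the Fas ligand gene, fell with the TNFR2, 4-1BB and DR3 agonists at 18 h (-0.68, -0.75 and -0.59) and rose with the OX40 agonist at 36 h (0.43 ± 0.13, edgeR adjusted p = 0.0198). It was rare, at 1.84 ± 0.380 CPM under the 4-1BB agonist at 18 h against 3.08 ± 0.299 CPM in control cultures (SD, n = 3 each). Tnfsf10, which encodes TRAIL, fell with the 4-1BB agonist at 18 h and 36 h (-0.46 and -0.51) and with the OX40 agonist at 36 h (-0.21). Btla, an inhibitory partner of HVEM, rose with all 4 agonists at 18 h (0.23, 0.69, 0.23 and 0.45). Without agonist, Lta, encoding lymphotoxin alpha, rose by 2.87 ± 0.04 at 18 h against resting, and Ltb, encoding lymphotoxin beta, changed by -1.05 ± 0.05.

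Of the other TNF receptor genes, 14 of 18 were tested, with 2 higher and 3 lower with TNFR2, 2 higher and 4 lower with 4-1BB, 1 higher and 2 lower with DR3 and 2 higher and 5 lower with OX40 at 18 h, against 31.1%, 25.8%, 19.6% and 19% of all genes called. At 36 h there were 4 higher and 2 lower with TNFR2, 4 higher and 2 lower with 4-1BB, 2 higher and 2 lower with DR3 and 4 higher and 1 lower with OX40, against 24.8%, 22.5%, 13.4% and 13.3% of all genes. Tnfrsf1b, the TNFR2 gene, fell in all 8 comparisons, most with 4-1BB at 18 h (-0.58 ± 0.03, edgeR adjusted p = 2.39e-19). Tnfrsf11a, encoding RANK, rose with that agonist at 18 h (2.50 ± 0.22, edgeR adjusted p = 2.07e-13), and Cd40 at 36 h (1.28 ± 0.17, edgeR adjusted p = 7.79e-08).

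Genes that act below the death domain receptors, 19 of 19 tested, had 6 higher and 6 lower with TNFR2, 4 higher and 5 lower with 4-1BB, 3 higher and 2 lower with DR3 and 4 higher and 1 lower with OX40 at 18 h, with medians of -0.02, -0.03, -0.02 and -0.02, against 31.1%, 25.8%, 19.6% and 19% of all genes called. At 36 h they had 5 higher and 4 lower with TNFR2, 4 higher and 4 lower with 4-1BB, 3 higher and 5 lower with DR3 and 2 higher and 4 lower with OX40, against 24.8%, 22.5%, 13.4% and 13.3% of all genes. Birc2, an inhibitor of apoptosis that binds TRAF proteins, rose in all 8 comparisons, most with 4-1BB at 18 h (0.62 ± 0.05, edgeR adjusted p = 5.75e-15). Ripk3, a kinase of necroptosis, fell in all 8, most with 4-1BB at 36 h (-0.46 ± 0.05, edgeR adjusted p = 5.63e-11). Without agonist, 10 higher and 7 lower of the 19 were called at 18 h against resting, where 80.9% of all genes were called. Among them were Mlkl, the effector of necroptosis (2.93 ± 0.17, edgeR adjusted p = 1.59e-21), and Casp8, the initiator caspase of death receptors (-0.75 ± 0.04, edgeR adjusted p = 1.90e-23).

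Genes of TRAF and NF-kB signalling, 20 of 20 tested, had 10 higher and 4 lower with TNFR2, 11 higher and 3 lower with 4-1BB, 9 higher and 2 lower with DR3 and 10 higher and 2 lower with OX40 at 18 h, with medians of 0.17, 0.14, 0.07 and 0.12, against 31.1%, 25.8%, 19.6% and 19% of all genes called. At 36 h they had 11 higher and 2 lower with TNFR2, 11 higher and 3 lower with 4-1BB, 10 higher and 1 lower with DR3 and 11 higher and 0 lower with OX40, against 24.8%, 22.5%, 13.4% and 13.3% of all genes. Nfkb2, the precursor of the p52 subunit, rose by 1.03, 1.02, 0.72 and 0.92 at 18 h for TNFR2, 4-1BB, DR3 and OX40. Nfkbia, an inhibitor of NF-kB and one of its targets, rose by 0.84, 0.88, 0.64 and 0.66. Traf1, an adaptor of these receptors, rose by 0.85 ± 0.03 with 4-1BB at 18 h (edgeR adjusted p = 7.44e-26). Without agonist the list had 7 higher and 12 lower at 18 h against resting, where 80.9% of all genes were called, with Tnfaip3, a brake on NF-kB, at -2.19 ± 0.04 (edgeR adjusted p = 3.28e-41).

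The genes whose group means followed each receptor most closely were found by Pearson's r of mean log2 CPM over the 11 groups, among 9741 genes, as a description. The groups share the large step between resting and culture. For Fas the closest were Pde6d (0.942), Thy1 (0.940) and Rab27a (0.935). Cd27 was followed by Sfxn3 (0.998), Tox (0.994) and Tnks1bp1 (0.993), Tnfrsf18 by Cenpb (0.993), Srebf2 (0.984) and Ndufs8 (0.983) and Tnfrsf8 by Apex1 (0.991), Gpn1 (0.991) and Ddx49 (0.990). Tnfrsf10b was followed by Suv39h2 (0.999), Mrpl45 (0.998) and Lig1 (0.998), Tnfrsf1a by Marf1 (0.997), Ganc (0.996) and Smcr8 (0.994) and Tnfrsf26 by Rrnad1 (0.996), Zfp945 (0.994) and Kcnip2 (0.993). Tnfrsf14 was followed by Tmem259 (0.980), Ino80b (0.978) and Tsc22d2 (0.976), Tnfrsf21 by Cstf2t (0.992), Pitpna (0.991) and Kpna1 (0.991) and Ltbr, with lower r, by Atrip (0.898), Atxn7l2 (0.890) and Itfg2 (0.885). Among the 10 receptors, the group means of Tnfrsf8 and Tnfrsf21 had the highest r (0.933) and those of Tnfrsf10b and Tnfrsf26 the lowest (-0.971).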

How the data were processed

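RNA-seq libraries of Tregs were made with the SMART-Seq v4 kit from RNA isolated with NucleoSpin RNA XS, per the labels' protocols. FastQC, Trimmomatic, STAR 2.5.3a, RSEM 1.2.28 and build mm10 are named in the submitters' processing notes. Annotation release and strand setting: not given in the sources used here. Deposited tables hold RSEM expected counts and TPM made by the authors, with a transcript length and effective length averaged over isoforms.

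Expected counts were rounded to whole numbers. Genes were filtered with filterByExpr by the 11 groups (14313 of 54087 kept), scaled by TMM and fitted with edgeR 4.0.16 in R 4.3.3 (robust quasi-likelihood, all 32 libraries, 1 mean per group, biological coefficient of variation 4.02%). Benjamini-Hochberg adjustment ran over the whole table of tested genes. DESeq2 1.42.0, RLE scaling, other filters, a replicate block, the ribosomal RNA locus and leaving out libraries were alternatives. The receptors, lists and tests were chosen with earlier results of these data known. Named genes were all 10 receptors, up to 4 called genes of a list with the smallest p (3 for agonists), direct ligands, and the 3 genes closest to each receptor. Tested on simulated counts for the 4-1BB comparison at 18 h, over 13491 genes, the fit recovered 63 of 100 genes changed by 0.5 (log2) and 84 of 100 changed by 1, with 6 false calls. The simulated counts had the same spread for every gene and, apart from the changed genes, equal means in all groups. The real counts have neither, so these figures do not measure how the fit performs on them. Depth sets precision: Ltbr had 0 to 16 counts per library. Libraries carry no molecular identifiers, so copies made by amplification cannot be told apart from separate molecules.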

Additional observations from a re-analysis of the deposited data

Results flagged for a closer look

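The effect of an agonist differed between 36 h and 18 h, by the test of the difference itself, for 11 pairs of receptor and agonist. Values are the 36 h effect minus the 18 h effect on the log2 scale. For Tnfrsf8 it was -0.40 with the TNFR2 agonist, -0.49 with 4-1BB, -0.38 with DR3 and -0.41 with OX40. For Tnfrsf18 it was 0.24 with TNFR2, 0.27 with 4-1BB and 0.25 with OX40. For Fas it was -0.61 with 4-1BB and -0.35 with OX40. With the TNFR2 agonist it was 0.27 for Cd27 and 0.64 for Tnfrsf26. The Fas difference with OX40 was lost in 4 of the fits that left out 1 library, and the Tnfrsf26 difference in 5.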

How the results depend on the processing

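Of 80 called receptor results, 63 kept their call in every alternative run, 17 lost it at least once, 5 uncalled results gained one, and none reversed. The Fas, Tnfrsf8 and Tnfrsf10b calls with agonists at 18 h were among those kept. Without the 6 libraries over 10000 CPM of the ribosomal RNA locus, 4 receptors were called with 4-1BB at 18 h, and 2 and 1 for the time differences of TNFR2 and OX40; this fit has fewer libraries. Genes called in that fit were 1876, 1873, 1150 and 1181 at 18 h for TNFR2, 4-1BB, DR3 and OX40 (4456, 3690, 2806 and 2724 with all libraries), 242, 245, 63 and 90 for the time differences (958, 626, 331 and 498), and 1351 and 688 for the joint tests at 18 h and 36 h (2045 and 1297). With the locus as a covariate the time differences called 508 for TNFR2 and 235 for OX40, and the joint test at 18 h called 1167 with only its own groups fitted; the cause was not tested. Leaving out 1 library also moved gene counts: OX40 at 18 h to 1491 without its library 2, DR3 at 36 h (1912 with all) to 1191 without control library 2 and 1223 without its library 1, the DR3 time difference to 197 to 209 (18 h control library 1, DR3 agonist library 1 at 18 h or 2 at 36 h), and the OX40 time difference to 160, 921 and 289 (OX40 agonist library 2 or 1 at 18 h, or 3 at 36 h). Leaving out 1 library gave 9 to 10 receptors called at 18 h against resting. It gave 5 to 7, 5 to 7, 4 to 6 and 4 to 5 for the agonists at 18 h, and 4 to 5, 4 to 6, 3 to 4 and 3 to 3 at 36 h. For the time differences it gave 3 to 4, 3 to 3, 1 to 1 and 1 to 3, the 1 without OX40 agonist library 2 at 18 h. Same-numbered libraries did not deviate together (median r -0.0085 over 155 pairs), and 2 of 32 correlated best with their own number; the replicate block left 7, 7, 5 and 5 receptors called at 18 h, as without it, and changed no receptor call in these comparisons.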
